A study of Homo sapiens with 6 samples.

Results

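Cell surface markers used to isolate tumour-initiating cells, 10 in all, were followed in SCC4, an established human cell line from a squamous carcinoma of the tongue. The genes CD44, CD24, CD47, EPCAM, NGFR, PDPN, LRIG1, MET, PROM1 and CXCR4 were chosen by name for this use, and 8 of the 10 had a row among the 16536 genes of the table. PROM1 and CXCR4 were not analysed here. All 8 passed the filter on low values. The groups were sphere cells, obtained by growing SCC4 in suspension and described by the submitters as isolated cancer stem cells, and parental cells, the attached SCC4 culture they came from. There were 3 libraries in each, with no other treatment or genotype in the labels. Both groups are 1 cell line, and the spheres were defined by their growth and not sorted on any of these markers as far as the labels say. The comparison asks whether cells grown as spheres carried more or less RNA of each marker.

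These proteins have different jobs at the membrane. CD44 is the main receptor for the matrix polysaccharide hyaluronan and a marker long used to enrich tumour-initiating cells from head and neck carcinomas. EPCAM is an epithelial adhesion protein, and MET is the receptor tyrosine kinase for hepatocyte growth factor. CD47 and CD24 are signals read by phagocytes, through SIRPA and SIGLEC10. NGFR is the low-affinity neurotrophin receptor of basal stratified epithelium. PDPN is a mucin-like glycoprotein of basal squamous cells that binds ezrin and moesin, and LRIG1 is an inhibitor of ErbB receptors that marks epidermal stem cells.

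Promoter windows of 4 members are shown because PDPN and CD47 are 2 of the genes that were higher in spheres, and MET and CD44 are 2 that were lower. The windows run from 250 bases before to 50 bases after a RefSeq start site in GRCh38.p14, and 6 of the 8 members had one. Where a gene had several, the first listed is given. They lie at chr1:13583507-13583806 on the plus strand (PDPN), chr3:108090982-108091281 on the minus strand (CD47), chr7:116671946-116672245 on the plus strand (MET) and chr11:35138921-35139220 on the plus strand (CD44). Capitals mark matches, on either strand, to the GC box GGGCGG or the TATA box TATAAA.
PDPN: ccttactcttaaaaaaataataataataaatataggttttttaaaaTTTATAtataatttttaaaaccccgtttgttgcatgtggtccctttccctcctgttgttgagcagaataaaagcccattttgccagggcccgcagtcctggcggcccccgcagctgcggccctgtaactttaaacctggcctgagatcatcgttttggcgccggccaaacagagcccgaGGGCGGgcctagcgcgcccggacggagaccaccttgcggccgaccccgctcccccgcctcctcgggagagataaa
CD47: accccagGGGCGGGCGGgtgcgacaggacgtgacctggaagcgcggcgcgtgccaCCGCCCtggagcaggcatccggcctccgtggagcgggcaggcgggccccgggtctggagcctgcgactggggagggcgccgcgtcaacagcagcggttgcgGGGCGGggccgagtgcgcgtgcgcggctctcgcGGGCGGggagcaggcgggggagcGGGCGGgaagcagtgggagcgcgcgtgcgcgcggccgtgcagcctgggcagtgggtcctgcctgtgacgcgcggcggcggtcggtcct
MET: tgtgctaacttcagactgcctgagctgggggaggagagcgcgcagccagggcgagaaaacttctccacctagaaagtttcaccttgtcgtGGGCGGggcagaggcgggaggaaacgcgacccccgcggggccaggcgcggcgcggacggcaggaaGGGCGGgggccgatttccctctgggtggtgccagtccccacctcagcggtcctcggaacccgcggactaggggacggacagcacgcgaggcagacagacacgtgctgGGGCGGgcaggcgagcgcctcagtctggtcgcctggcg
CD44: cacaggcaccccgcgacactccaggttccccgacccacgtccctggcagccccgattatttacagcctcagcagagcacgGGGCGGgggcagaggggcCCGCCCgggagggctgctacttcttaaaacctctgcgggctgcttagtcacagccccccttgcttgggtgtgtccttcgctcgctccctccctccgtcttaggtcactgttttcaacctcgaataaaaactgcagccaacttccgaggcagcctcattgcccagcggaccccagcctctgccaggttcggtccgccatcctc
The CD47 window held 6 GC boxes, of which 2 overlap each other, against 3 in MET, 2 in CD44 and 1 in PDPN. A GC box was present in 45.0% of the 35116 windows of all genes. The PDPN window held 1 match to TATAAA, read on the minus strand, a match that 11.5% of all windows had. The AP-1 motif TGANTCA and the E-box CAGGTG, present in 7.71% and 20.6% of all windows, were searched on both strands and had no match in these 4. All 4 windows held a GC box, those of the genes that rose and of those that fell.

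Values are normalised expression in the units that the authors name as TPM, which by its name is a level per transcript length. The quantifier was not stated, so whether transcript length was accounted for is unknown. Comparisons of level between genes rest on that name. Column totals were 1007357 to 1134102 units in sphere libraries and 885258 to 1007523 units in parental libraries. Totals are set by scaling, which leaves the read depth unknown and allows no counting interval. Values near 1 unit are a single rounding step. Nothing in the labels states that replicates came from separate cultures, and p-values may measure only technical spread. The label was checked against 12 squamous and basal markers, all of which were tested, with 9 higher and 2 lower in sphere cells. KRT5, a basal keratin, was at 11817, 11318 and 12203 units in sphere cells against 2214, 2165 and 2408 units in parental cells. Erythroid transcripts stood apart in 3 libraries. The 9 marker genes with a row summed to 1.24, 1225 and 0.312 units in sphere replicates 1 to 3, and were listed at 0 and summed to 1910 and 1308 units in parental replicates 1 to 3. Because CD44, CD47 and CD24 are also carried by blood cells, the fold changes and list counts below were recomputed without those 3 libraries. The level order, the ratios and the search for similar genes were not.

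Of the 8 markers, 4 rose in sphere cells, 3 fell and 1 did not pass the test. PDPN, NGFR, LRIG1 and CD47 rose, and EPCAM, MET and CD44 fell. The test was limma on log2(value + 1) over 15034 genes, with a gene called at a Benjamini-Hochberg adjusted p under 0.05. It called 48.7% of all tested genes, 25.8% as higher and 22.9% as lower in sphere cells. With so many genes called, 7 of 8 markers is a count from a short list, and a call alone sets no marker apart. At least 2-fold changes were called for 10.4% of tested genes, and for 1 of the 8 markers. The median log2 fold change was 0.29 over the 8 markers and 0.04 over all tested genes. In 7 of the 8 the groups did not overlap, as was the case for 65.0% of tested genes. Sphere libraries were all higher for 4 markers and 37.6% of tested genes, and all lower for 3 markers and 27.5% of tested genes. In bulk RNA, fewer cells with a marker and less of its RNA per cell cannot be told apart.

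**Figure D1:**
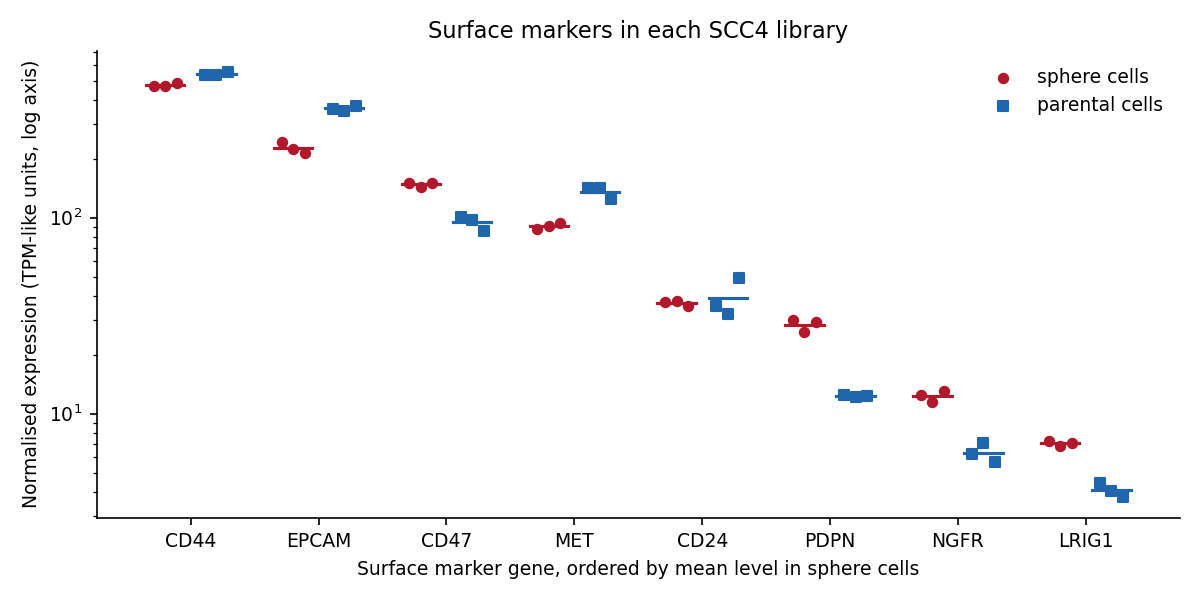
Normalised expression of the 8 surface markers on a log axis, with each library as a point (red circles for 3 sphere libraries, blue squares for 3 parental libraries) and each group mean as a line. CD44 is at the top in both groups and LRIG1 at the bottom, and the points of the groups overlap for CD24 alone.

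Ranked by level, CD44 stood first in both groups and LRIG1 last. In sphere cells the order of mean levels was CD44, EPCAM, CD47, MET, CD24, PDPN, NGFR and LRIG1. In parental cells it was CD44, EPCAM, MET, CD47, CD24, PDPN, NGFR and LRIG1, so that only CD47 and MET stood at another position. No neighbours in either order had overlapping library values. The closest pair in sphere cells was CD24 over PDPN, 1.29 times apart, against 3.18 times in parental cells. CD47 was 1.63 times MET in sphere cells, and MET was 1.43 times CD47 in parental cells. Among all 16536 genes the mean level of CD44 ranked 262 in sphere cells and 216 in parental cells. EPCAM ranked 605 and 344, and LRIG1 9398 and 10547, in the same order of groups.

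PDPN had the largest change of the 8, and it was the one marker past 2-fold. It was at 30.0, 26.2 and 29.2 units in sphere replicates 1 to 3, against 12.4, 12.1 and 12.3 units in parental replicates 1 to 3. Every sphere library lay above every parental one, and the parental values were nearly equal. In whole rounding steps sphere libraries held 29, 23 and 29 and parental libraries 14, 12 and 13. The near equality of the parental values thus came with the scaling. The means were 28.5 ± 1.98 and 12.3 ± 0.153 units (SD, n = 3 each), a 2.32-fold ratio. The log2 fold change was 1.15 (SE 0.06, limma adjusted p = 5.51e-05), and 7.63% of tested genes had a larger one in size. PDPN (ENSG00000162493) lies on chromosome 1 at 13583465 to 13617957 on the plus strand in the GENCODE 29 annotation of GRCh38, which lists 10 protein-coding transcripts. Its promoter window, shown above, was the least GC-rich of the 6, at 52.0%. PDPN is also carried by fibroblasts and lymphatic endothelium. Of 10 fibroblast markers, 3 had a row, and their sum was 25.2 to 30.2 units in sphere libraries and 7.53 to 9.77 units in parental libraries. The sphere sum was mostly LUM, a small matrix proteoglycan, while COL1A1 fell and COL1A2 was near 1 unit, and their part in the PDPN result was not tested.

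NGFR, at a lower level, came next. Its values were 12.4, 11.4 and 13.1 units in sphere cells and 6.19, 7.06 and 5.65 units in parental cells. The groups did not overlap, and the means of 12.3 ± 0.851 and 6.30 ± 0.709 units (SD, n = 3 each) were 1.95-fold apart. The log2 fold change on the log2(value + 1) scale was 0.87 (SE 0.09, limma adjusted p = 0.000662), which understates the ratio at such levels. NGFR (ENSG00000064300) lies on chromosome 17 at 49495293 to 49515017, plus strand, with 3 protein-coding transcripts annotated.

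LRIG1 was the least abundant marker and rose by a similar factor. It was at 7.23, 6.84 and 7.06 units in sphere cells and 4.44, 4.03 and 3.77 units in parental cells. Sphere libraries were all higher, but in whole rounding steps they held 7, 6 and 7 steps against 5, 4 and 4 in parental cells, so the nearest libraries were 1 step apart. The means were 7.04 ± 0.199 and 4.08 ± 0.339 units (SD, n = 3 each), with a log2 fold change of 0.66 (SE 0.07, limma adjusted p = 0.000797). The gene (ENSG00000144749) spans 66378797 to 66501263 on the minus strand of chromosome 3 and overlaps SLC25A26 on the other strand. The strandedness of the libraries is not given in the sources used here. SLC25A26, a mitochondrial carrier gene, was at 7.39 ± 0.758 units in sphere cells and 6.92 ± 0.272 units in parental cells (SD, n = 3 each) and did not pass the test (limma adjusted p = 0.457).

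CD47, the signal that holds back phagocytosis, also rose, at a higher level. It stood at 150, 143 and 150 units in sphere cells and 101, 97.8 and 85.0 units in parental cells. Every sphere library was above the highest parental one, and the lowest parental value was in replicate 3. The means were 148 ± 3.98 and 94.7 ± 8.53 units (SD, n = 3 each), a 1.56-fold ratio, with a log2 fold change of 0.64 (SE 0.07, limma adjusted p = 0.000798). CD47 (ENSG00000196776) lies at 108043094 to 108091862 on the minus strand of chromosome 3. Its promoter window, at 79.0% GC, was the most GC-rich of the 6.

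EPCAM had the largest fall. It was at 244, 225 and 213 units in sphere cells and 359, 350 and 373 units in parental cells. No sphere library reached the lowest parental value. The means were 227 ± 15.7 and 361 ± 11.9 units (SD, n = 3 each), a ratio of 0.63, with a log2 fold change of -0.67 (SE 0.06, limma adjusted p = 0.000363). EPCAM (ENSG00000119888) lies at 47345158 to 47387601 on the plus strand of chromosome 2.

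MET fell by a similar amount. Its values were 87.9, 90.9 and 93.8 units in sphere cells and 141, 141 and 125 units in parental cells. The groups did not overlap, and parental replicate 3 was the lowest of its group, as for CD47. The means were 90.8 ± 2.96 and 136 ± 9.46 units (SD, n = 3 each), a ratio of 0.67, with a log2 fold change of -0.57 (SE 0.06, limma adjusted p = 0.000662). MET (ENSG00000105976) spans 116672390 to 116798386 on the plus strand of chromosome 7.

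CD44, the marker most used in carcinomas of the head and neck, was slightly lower in spheres. It was at 468, 469 and 488 units in sphere cells and 536, 532 and 554 units in parental cells. The groups did not overlap, but the means of 475 ± 11.2 and 541 ± 11.5 units (SD, n = 3 each) differ by a ratio of only 0.88. The log2 fold change was -0.19 (SE 0.04, limma adjusted p = 0.0147), and 68.3% of tested genes had a larger one in size. The call ended in 5 of 18 alternatives: with quantile normalization (limma adjusted p = 0.0572), without mitochondrially encoded genes (0.071), without sphere replicate 1 (0.061), without sphere replicate 2 (0.0588) and with the 3 erythroid-positive libraries left out (0.102), over a range of 0.0132 to 0.102. In all 18 the value stayed negative. CD44 (ENSG00000026508) lies at 35138870 to 35232402 on the plus strand of chromosome 11 and is known for alternative splicing. GENCODE 29 lists 26 protein-coding transcripts for it, with up to 18 exons, and a value per gene does not separate the standard from the variant forms.

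CD44 is overlapped by an antisense gene, CD44-AS1, which was at 4.17, 7.91 and 9.07 units in sphere cells and 3.43, 6.05 and 7.61 units in parental cells. These levels are small beside those of CD44, the groups overlapped, and the antisense gene did not pass the test (log2 fold change 0.26, limma adjusted p = 0.551). Without known strandedness, reads from the 2 genes may not be told apart where they overlap.

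CD24, a small mucin-like protein held by a lipid anchor, was the marker with no call. It was at 37.2, 37.5 and 35.3 units in sphere cells and 35.3, 32.3 and 49.3 units in parental cells. Parental replicate 3 was the highest of the 6 libraries, and the sphere libraries lay between it and parental replicate 2. The means were 36.7 ± 1.18 and 39.0 ± 9.07 units (SD, n = 3 each). The log2 fold change was -0.06, with a 95% interval of -0.44 to 0.32 (limma adjusted p = 0.751, and 0.165 to 0.98 over the alternatives). Without parental replicate 3 it was 0.11, so the sign rests on that library. CD24 (ENSG00000272398) lies at 106969831 to 106975627 on the minus strand of chromosome 6, and GENCODE 29 names 3 CD24 pseudogenes, with which its reads may be shared.

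**Figure D2:**
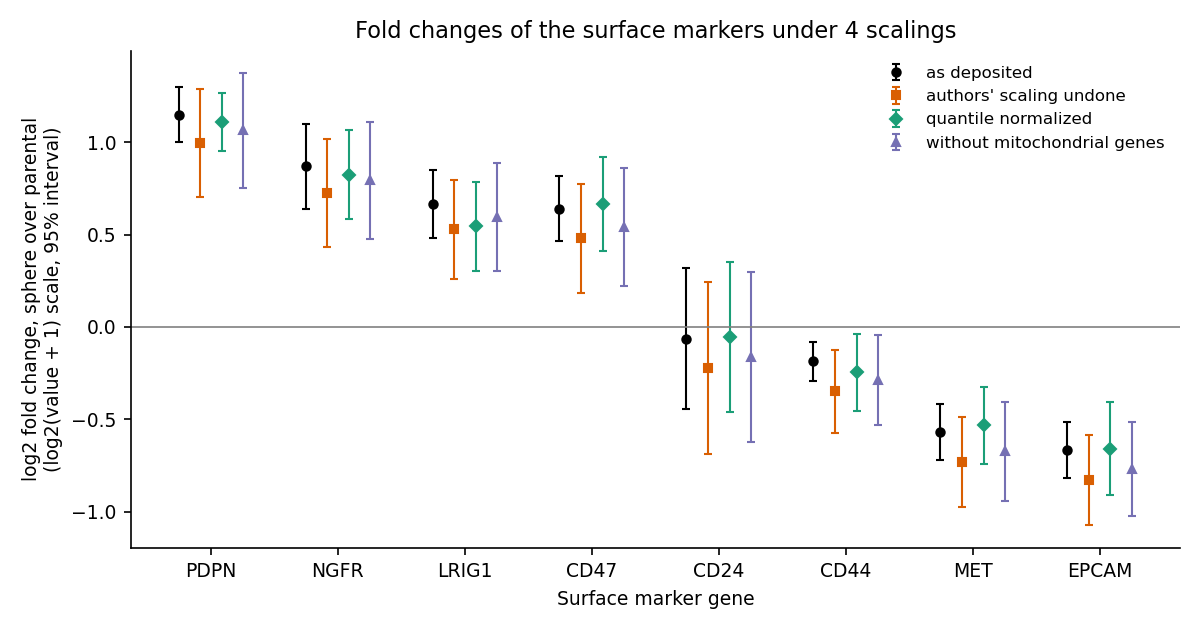
Log2 fold change of each marker, sphere over parental, on the log2(value + 1) scale with its 95% interval from limma, for the values as deposited and 3 other scalings (3 libraries per group). PDPN, NGFR, LRIG1 and CD47 lie above 0 and CD44, MET and EPCAM below it under all 4, while the interval of CD24 holds 0 each time.

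How far each marker moved depended on scaling, though no direction of a called marker did. Undoing the scaling of each library by the authors shifted the median of all genes by -0.14 on the log2 scale, and PDPN then had a log2 fold change of 0.996 and EPCAM one of -0.829. Leaving out mitochondrially encoded genes shifted that median by -0.10. Relative to the median of all genes, PDPN lay between 1.09 and 1.13 under the 4 scalings, CD47 between 0.57 and 0.68, and EPCAM between -0.73 and -0.64. The share of called genes that were higher was 53.0% as deposited, 37.7% once the scaling was undone and 42.9% when mitochondrially encoded genes were left out. With the 3 erythroid-positive libraries left out, PDPN, NGFR, LRIG1 and CD47 had log2 fold changes of 1.19, 0.94, 0.58 and 0.56, and EPCAM, MET and CD44 had -0.65, -0.63 and -0.17.

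A ratio of 2 markers within a library is free of the scaling between libraries. The ratio of PDPN to EPCAM was 0.123, 0.117 and 0.137 in sphere cells and 0.0346, 0.0346 and 0.0329 in parental cells. The groups were 3.69-fold apart in their means. The pair was chosen with results known, and PDPN was higher and EPCAM lower in every sphere library than in every parental one. A lack of overlap in this ratio was thus fixed in advance and adds nothing to the results of the 2 genes. CD44 over CD24, the pair read together in sorting, was 12.6, 12.5 and 13.8 in sphere cells and 15.2, 16.5 and 11.2 in parental cells. Here the groups overlapped, and parental replicate 3 was the lowest of the 6. These ratios describe the libraries and were not tested.

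**Figure D3:**
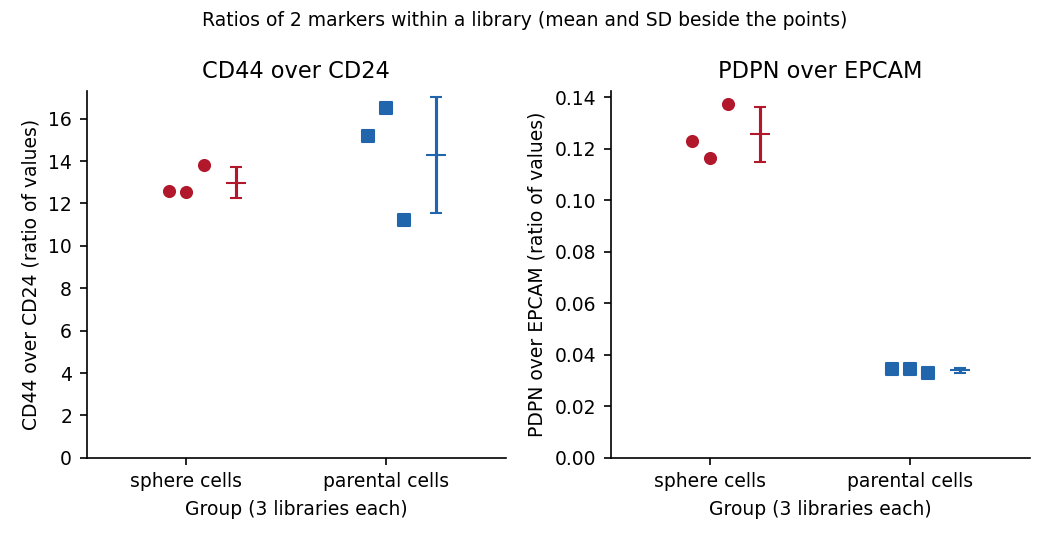
CD44 over CD24 (left) and PDPN over EPCAM (right) in each library, for sphere (red circles) and parental cells (blue squares), with the mean and SD of 3 libraries beside the points. The PDPN to EPCAM ratio is 0.117 to 0.137 in sphere cells and 0.0329 to 0.0346 in parental cells, and the CD44 to CD24 ratios overlap.

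The partners of the fallen adhesion marker EPCAM went in both directions, at shares near those of all genes. Of 14 tested genes that bind or process EPCAM, 3 rose, 3 fell and 8 were not called, beside 25.8% higher and 22.9% lower among all tested genes. The median log2 fold change was 0.06, against 0.04 for all tested genes. CLDN7, the tight junction claudin that binds EPCAM directly, was at 81.6, 78.4 and 80.7 units in sphere cells and 144, 132 and 110 units in parental cells. It fell with EPCAM and by a similar log2 fold change, -0.66 (limma adjusted p = 0.00267). The claudin CLDN1 and the tetraspanin CD9 went the other way and rose, at 2063 ± 51.7 and 846 ± 33.7 units in sphere cells against 443 ± 39.7 and 307 ± 16.3 units in parental cells (SD, n = 3 each). FHL2, a partner of the cleaved EPCAM tail, and the membrane protease gene ST14 fell by 0.47 and 0.27 on the log2 scale, and the ST14 call ended without mitochondrially encoded genes (limma adjusted p = 0.0644, and 0.000966 to 0.0644 over the alternatives).

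Around NGFR, some ligands and co-receptors were higher and others lower in spheres. Of 9 tested neurotrophin and receptor genes, 3 rose, 2 fell and 4 were not called, with a median log2 fold change of 0.40. The background was 25.8% higher and 22.9% lower, so these counts do not set the genes apart. With array weights or without parental replicate 3, 5 rose. NTF4, neurotrophin-4, rose to 15.5, 13.7 and 13.1 units in sphere cells, against 4.42, 4.04 and 4.73 units in parental cells (log2 fold change 1.48, limma adjusted p = 7.8e-05). NTRK2, the high-affinity receptor for NTF4, was at 5.17, 4.57 and 5.04 units in sphere cells and 2.68, 2.02 and 1.88 units in parental cells, and rose (log2 fold change 0.90, limma adjusted p = 0.00137). Sortilin, SORT1, a co-receptor of NGFR for uncleaved neurotrophins, fell (log2 fold change -0.87), and its relative SORCS2 rose (0.82). Like LRIG1, NTRK2 and SORCS2 lay only a few rounding steps above 0, and each could be fitted in 17 of 18 alternatives. RTN4R, the Nogo receptor that signals through NGFR in neurons, had 0.40 and did not pass the test, which it did in 4 of 18 alternatives (limma adjusted p 0.00014, in the fit of 3 libraries, to 0.231).

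LRIG1 restrains ErbB receptors, and its relative LRIG3 and EGFR rose as well, while LRIG2 did not pass the test. LRIG2 was at 5.17, 4.57 and 5.04 units in sphere cells and 5.29, 6.05 and 5.67 units in parental cells (log2 fold change -0.17, limma adjusted p = 0.127), and is named here after its values were seen. LRIG3 was at 26.9, 27.3 and 28.2 units in sphere cells and 8.87, 8.07 and 8.50 units in parental cells, a larger log2 fold change, 1.59 (limma adjusted p = 1.27e-05), than that of LRIG1. EGFR was at 487, 506 and 528 units in sphere cells and 227, 232 and 225 units in parental cells (log2 fold change 1.15, limma adjusted p = 2.09e-05). Its level was thus far above that of its inhibitor in both groups. ERBB2 and ERBB3 had log2 fold changes of 0.24 and 0.22, and both calls ended when the scaling was undone, when mitochondrially encoded genes were left out and when the 3 erythroid-positive libraries were left out (limma adjusted p up to 0.549 and 0.597). RNF41, a ubiquitin ligase known to act on ERBB3, and CBL, which acts on EGFR and MET, fell by 0.79 and 0.61 on the log2 scale. PLXNB1, a semaphorin receptor that associates with MET, rose by 0.77 on that scale. Of the 16 tested MET and LRIG1 partners, 7 rose, 5 fell and 4 were not called (median log2 fold change 0.23), beside 25.8% higher and 22.9% lower among all tested genes. Once the scaling was undone or mitochondrially encoded genes were left out, 3 rose, beside 15.6% and 15.4% of all tested genes. HGF, the ligand of MET, was not analysed here.

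**Figure D4:**
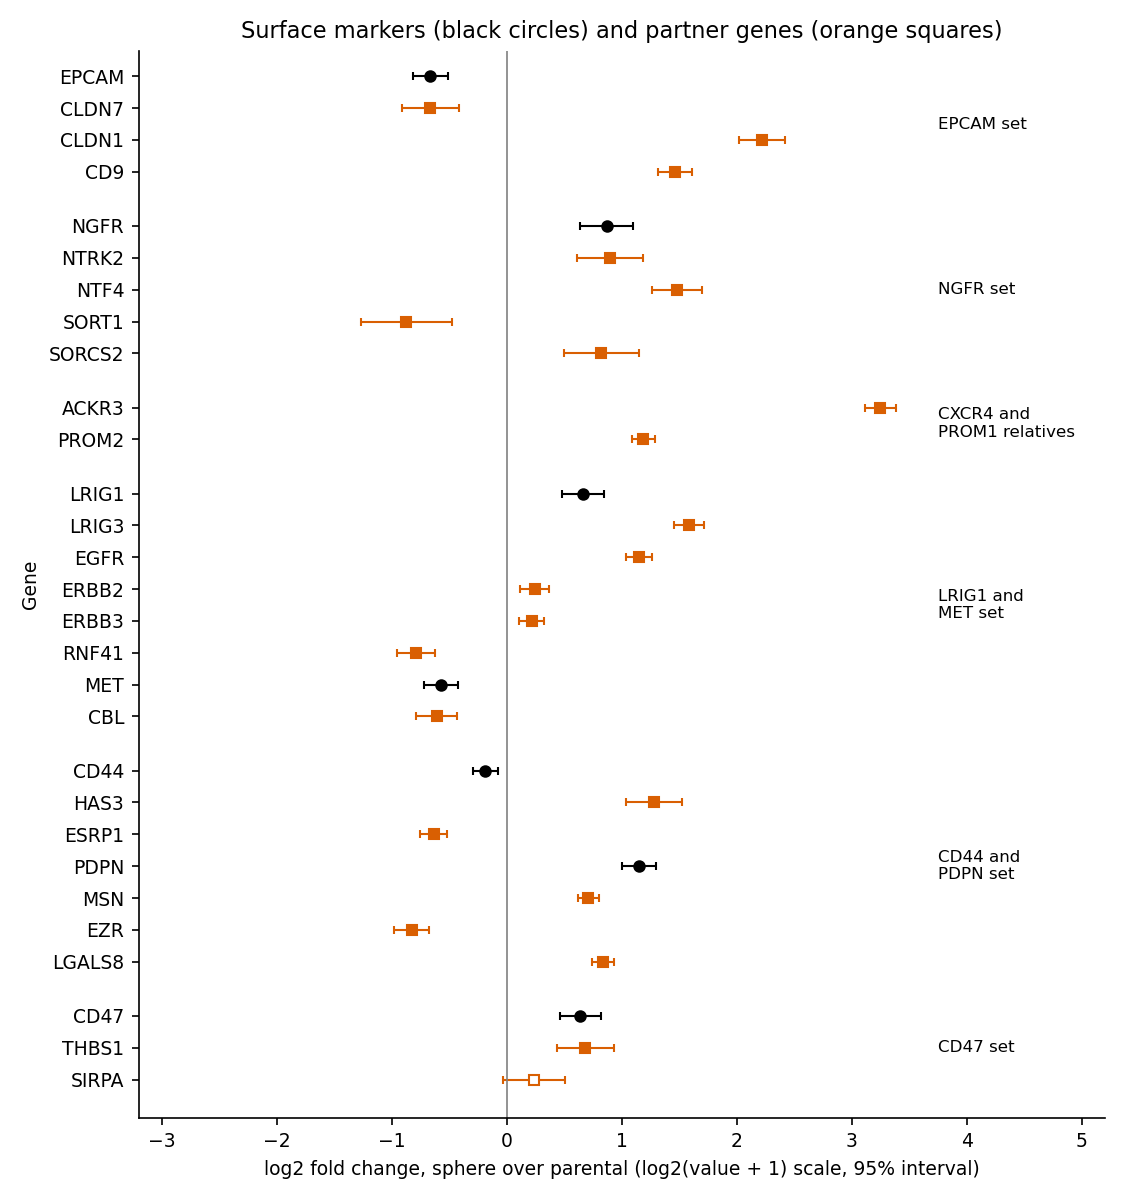
Log2 fold changes, sphere over parental, on the log2(value + 1) scale with 95% intervals from limma, for surface markers (black circles) and genes of their pathways (orange squares), by set. The open square, SIRPA, did not pass the test. Of the genes plotted, ACKR3 has the largest rise at 3.25, and EPCAM and CLDN7 lie side by side near -0.67.

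CD44 and PDPN share partners at the cell cortex, and among these MSN and EZR moved apart. MSN, moesin, was at 349, 357 and 368 units in sphere cells and 220, 217 and 218 units in parental cells, and rose (log2 fold change 0.71, limma adjusted p = 5.62e-05). EZR, ezrin, was at 358, 346 and 349 units in sphere cells and 636, 576 and 661 units in parental cells, and fell (log2 fold change -0.83, limma adjusted p = 0.000194). Moesin RNA therefore roughly equalled ezrin RNA in spheres, at 358 and 351 units on average, while in parental cells the means were 218 and 624 units. Their relative RDX, named after its values were seen, averaged 44.3 units in sphere cells and 49.7 units in parental cells. Its groups overlapped and it was not called (log2 fold change -0.16, limma adjusted p = 0.0787). HAS3, a synthase of the CD44 ligand hyaluronan, was at 11.4, 11.4 and 11.1 units in sphere cells and 3.51, 4.03 and 4.74 units in parental cells (log2 fold change 1.28, limma adjusted p = 0.000209). ESRP1, the epithelial splicing factor that favours variant exons of CD44, fell to 97.9 ± 1.32 units in sphere cells, against 153 ± 7.63 units in parental cells (SD, n = 3 each). ADAM10, a protease that sheds CD44, rose by 0.49 on the log2 scale. In all, 6 of 15 tested CD44 and hyaluronan genes rose, 4 fell and 5 were not called (median log2 fold change -0.11), beside 25.8% higher and 22.9% lower among all tested genes. One of those that rose, the hyaluronan receptor gene LAYN, was at a single rounding step in each sphere library and listed at 0 in each parental library. It passed the filter only through the sphere group, so its call carries no weight. LGALS8, a galectin that binds PDPN, rose by 0.84. CLEC1B, the platelet receptor for PDPN, and HAS2 were not analysed here.

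The other members could be followed only through relatives. ACKR3, the other receptor for the CXCR4 ligand CXCL12, was at 119, 114 and 116 units in sphere cells and 10.6, 12.1 and 11.3 units in parental cells. The ratio of means was 10.2, and only 0.313% of tested genes had a larger change in size (log2 fold change 3.25, limma adjusted p = 2.23e-06). PROM2, the paralog of PROM1, was at 174, 174 and 182 units in sphere cells and 76.2, 79.7 and 74.7 units in parental cells (log2 fold change 1.19, limma adjusted p = 1.42e-05). Neither gene stands in for the marker itself. CD74, the invariant chain that also serves as a receptor with CXCR4 for the cytokine MIF, rose by 1.65, and the signalling regulators ARRB2 and GRK6 had -0.60 and -0.21 and were called lower. The other arrestin gene of the list, ARRB1, named after its values were seen, was called higher at a low level, 3.89 units on average in sphere cells and 1.26 units in parental cells (log2 fold change 1.13, limma adjusted p = 0.00549), and GRK2 was not called. The GRK6 call ended in 5 of 18 alternatives, among them those without sphere replicate 1 (limma adjusted p = 0.0705) and without sphere replicate 3 (0.0703), over a range of 0.00787 to 0.0705. Of the 12 tested PDPN and CXCR4 partners, 6 rose and 3 fell (median log2 fold change 0.77), beside 25.8% and 22.9% of all tested genes.

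For CD47, ligand and receptor genes were both measured. THBS1, thrombospondin-1, which binds CD47, was at 170, 169 and 188 units in sphere cells and 99.1, 103 and 126 units in parental cells, and rose (log2 fold change 0.68, limma adjusted p = 0.00239). SIRPA, the phagocyte receptor, was at 12.4, 11.4 and 10.1 units in sphere cells and 10.7, 9.08 and 8.48 units in parental cells, which overlap, and did not pass the test (limma adjusted p = 0.123, and 0.049 to 0.756 over the alternatives). QPCTL, the enzyme that modifies CD47 for SIRPA binding, was at 14.4 ± 0.947 units in sphere cells and 13.2 ± 1.06 units in parental cells (SD, n = 3 each) and did not pass either (limma adjusted p = 0.253, and 0.154 to 0.89 over the alternatives). The kinase LYN rose by 0.86 and SRC, at -0.19, was called lower, a call that ended in 9 of 18 alternatives, among them those without parental replicate 1 or 3 or any 1 of the sphere replicates (limma adjusted p 0.0534 to 0.104, and 0.0218 to 0.104 over the alternatives). Of the 5 tested CD47 and CD24 partners, 2 rose and 1 fell (median log2 fold change 0.24), beside 25.8% and 22.9% of all tested genes. Of 15 leukocyte markers, 7 had a row, and they summed to 91.0 to 103 units in sphere libraries and 73.7 to 85.2 units in parental libraries, mostly CD68 and CD14, which are not confined to leukocytes. CD14 was called higher, at 28.9 ± 0.639 units in sphere cells and 14.2 ± 0.957 units in parental cells (SD, n = 3 each; limma adjusted p = 8.52e-05). The other 5 were at 1 rounding step or less in every library, except TYROBP at 3.26 units in sphere replicate 2 and FCER1G at 2.89 units in parental replicate 3, both libraries with erythroid transcripts. Their part in the CD47 result was not tested.

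Genes whose pattern over the 6 libraries lay nearest to a marker were found by the root mean square difference of centred log2 values among 10270 genes whose mean reached 5 units. SLC11A2 and TXNIP lay nearest to LRIG1, at 0.0148 and 0.02, and TPBG and MAP3K2 nearest to MET, at 0.0169 and 0.024. ELMO2 and EIF4G1 lay nearest to CD44, at 0.0161 and 0.0169. RGL2 and HOOK2 lay nearest to CD47, IL1R1 and THEM6 to PDPN, HPSE and RRAS2 to EPCAM, and CCNL1 and PGAP1 to NGFR, at 0.0212 to 0.0428. RABEPK and FAAP20 lay nearest to CD24, at 0.0194 and 0.0244, and shared its high value in parental replicate 3. None of these genes was on a partner list, and with 2 groups of 3 libraries such likeness mostly states a similar fold change.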

How the data were processed

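Total RNA of SCC4 cells gave 6 single-end libraries, read by BGISEQ sequencing per the labels' protocols. HISAT, Bowtie2 and the mouse build GRCm38.p6 are listed in the submitters' processing notes, although cells and gene identifiers are human. The human build and the quantifier were not stated. The deposited values, named as TPM by the authors, are treated as a signal on a TPM-like scale, since column totals differ. Low values lay on steps of 1 constant per library (0.8863 to 1.136), and dividing by it, called undoing the scaling, brought totals to 998154 to 999187 and left 91.5% to 100% of values under 100 units within 0.1 of a whole number. Members and gene positions were matched by symbol and identifier, with positions from GENCODE 29 (GRCh38) and promoters from RefSeq (GRCh38.p14).

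Genes that reached 1 unit in 3 or more libraries were fitted on log2(value + 1) in R 4.3.3 by limma 3.58.1, with a mean trend and no covariates, two-sided, with Benjamini-Hochberg adjustment over 15034 genes. The procedure was tested on simulated data with independent normal noise. These held no rounding steps, scaling between libraries or joint adjustment within a group, so the test does not cover them. Values after ± are SDs. Members and lists were chosen with earlier results of these data known. Named are all members, 20 direct partners (13 with a row, of which some are not reported here), up to 4 further genes per list with the smallest p and a mean of at least 5 units, and the 2 genes nearest to each member. Some deposited values may have been adjusted jointly within a group, as each sphere library lists 434 genes at 0, which could make the spread too small. The 18 alternatives varied the pseudocount, filter, scaling and variance model, added a replicate block, or had each library left out, the 3 erythroid-positive libraries left out, and sphere replicates 1 and 3 averaged.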

Additional observations from a re-analysis of the deposited data

How the results depend on the processing

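PDPN, NGFR, LRIG1 and CD47 stayed higher and EPCAM and MET lower, with a call, in all 18 alternatives, and 4 members were called higher in each. CD44 stayed lower, but its call ended with quantile normalization (log2 fold change -0.245), without mitochondrially encoded genes (-0.288) and with the 3 erythroid-positive libraries left out (-0.166). The cause was not tested. It also ended without sphere replicate 1 (adjusted p = 0.061) and without sphere replicate 2 (0.0588). The fit of 3 libraries has 1 parental library, assumed to vary like the sphere ones, and 1 residual degree of freedom per gene. Its spread comes from all genes together, so its p-values are far too small and its calls count for little. CD24, never called, turned positive with array weights (0.00438), without parental replicate 3 (0.114) and without those 3 libraries (0.0352). RABEPK did so without parental replicate 3 (0.102) and without the 3 libraries (0.0429), and FAAP20 with array weights (0.00583), without parental replicate 3 (0.112) and without the 3 libraries (0.0696). QPCTL turned negative with the scaling undone (-0.0294). Leaving out 1 library at a time gave log2 fold changes of -0.206 to -0.17 for CD44, -0.184 to 0.114 for CD24, -0.2 to 0.102 for RABEPK, -0.186 to 0.112 for FAAP20, 0.566 to 0.69 for CD47, -0.719 to -0.621 for EPCAM, 0.804 to 0.942 for NGFR, 1.11 to 1.21 for PDPN, 0.62 to 0.715 for LRIG1 and -0.63 to -0.541 for MET. Genes called numbered 7315, 5790 to 7305 with 1 library left out, and 2 or 3 members were then lower. The CD47 and CD24 partner list had 0 genes lower in place of 1 in 9 alternatives. The labels do not say whether replicate numbers pair the libraries. Deviations of same-numbered sphere and parental libraries correlated at 0.329, 0.121 and -0.273. Those of differently numbered ones correlated at -0.467 to 0.341, which does not settle the question. With the replicate block 6176 genes were called, the calls of the 7 members held (CD44 adjusted p = 0.0406), SIRPA was called as well (0.049), and not every library correlated best with its own number. The order by group medians was the same as by means, with 2 members at another position. Read depth is unknown, so how precise low values are was not estimated.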

Other observations

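Surface proteins used elsewhere as markers of tumour-initiating or progenitor cells, but not among the 10, were also called in both directions, as genes were in general. Of 16 such genes tested besides the members, 6 rose, 6 fell and 4 were not called, beside 25.8% higher and 22.9% lower among all tested genes. The median log2 fold change was -0.12, against 0.04 for all tested genes. One of those that rose, CD36, was at a single rounding step in each sphere library and listed at 0 in each parental library. It passed the filter on low values only through the sphere group, so its call carries no weight. MUC1, a membrane mucin of glandular and stratified epithelium, was at 67.2, 67.0 and 63.5 units in sphere cells and 8.92, 8.07 and 5.62 units in parental cells, and rose (log2 fold change 2.99, limma adjusted p = 4.62e-05). ITGA2, the collagen-binding integrin chain, was at 45.7 ± 3.22 units in sphere cells and 18.9 ± 1.14 units in parental cells (SD, n = 3 each), and rose by 1.23 on the log2 scale. CD82, a tetraspanin known as a metastasis suppressor, rose by 0.90. NT5E, the ectonucleotidase CD73, fell to 11.6 ± 0.417 units in sphere cells, against 27.3 ± 1.72 units in parental cells (SD, n = 3 each). These 4 calls held in all 18 alternatives. Of 10 endothelial markers, 2 had a row, and they summed to 22.2 to 22.7 units in sphere libraries and 19.2 to 24.0 units in parental libraries.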
